A study of Mus musculus with 12 samples.

Results

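Of 59 genes listed as interferon-induced effectors or as parts of the signalling that induces them, 52 had a transcript cluster of their own on the arrays, out of 19938 genes with one in all. Members were chosen by gene symbol, without Irf or Ifi200 genes, and where a gene had several clusters the one with the highest mean signal was used. Oas1g, Gbp2, Gbp6, Igtp, Irgm2 and Isg15 shared every cluster with another symbol and Ifi44 had no entry, so these 7 are given no values. The 52 fell into 9 groups: 5 receptor chains and STAT2, 5 nucleic-acid sensors, 3 Ifit genes, 7 Oas genes, 12 Mx, viperin and other restriction factors, 6 Gbp and Irg GTPases, 3 genes of the ISG15 system, the trio Parp9, Dtx3l and Parp14, and 8 other induced genes.

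RNA came from purified bone-marrow pro-B cells, the precursors in which antibody heavy-chain genes are assembled, of mice killed at 1 month of age and kept free of specific pathogens. It was hybridised to Affymetrix Mouse Gene 1.0 ST arrays, 12 in all, 4 for each of 3 genotypes. WT cells are labelled pro-B cells; cells with a single working copy of Pax5, the transcription factor that maintains B-cell identity (Pax5+/-), and cells that in addition lack 1 copy of Cd72, an inhibitory co-receptor of B cells (Cd72+/-;Pax5+/-), are both labelled preleukemic. The series concerns the joint loss of these genes in B-cell leukemia, and the comparisons are between the labelled genotypes. Those with Cd72+/-;Pax5+/- also differ in the sex of the cells, as given below, so they do not isolate added Cd72 heterozygosity. The Cd72+/-;Pax5+/- group is also called the double mutant here, and Pax5+/- the single mutant. Strain, structure of the alleles and sorting gates are not stated in the sources at hand.

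Type I interferons signal through IFNAR1 and IFNAR2, and interferon-gamma through IFNGR1 and IFNGR2, to kinases that phosphorylate STAT proteins. A complex that contains STAT2 and IRF9 then binds the interferon-stimulated response element (ISRE), and another promoter motif of the interferon response is the gamma-activated site (GAS). The induced genes encode proteins that sense foreign nucleic acid, block viral RNA, protein or membranes, or feed back on the pathway, and many are also transcribed at a low level without infection.

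Signal is given on the log2 scale of the deposited values, in which a difference of 1 is a doubling. Array medians lay between 6.91 and 7.005, and the number of arrays limits the precision. No label ties the arrays of a group to separate mice, so p-values measure only how far these arrays differ, which could be technical spread. Cd72 averaged 8.90 (WT), 10.19 (Pax5+/-) and 7.51 (double mutant), and Pax5 11.57, 10.97 and 11.21, so both genes were lowest on average in a group labelled as lacking a copy. Xist lay between 11.75 and 11.9 on all Cd72+/-;Pax5+/- arrays and at or under 5.52 on all others, and the Y-linked gene Uty lay between 4.88 and 5.19 against 8.85 to 9.74. The sex of the cells and the Cd72+/-;Pax5+/- genotype therefore cannot be told apart in any comparison with that group. Pro-B markers (11 measured) averaged 10.95 to 11.89 on WT arrays, 11.63 to 11.75 in Pax5+/- and 11.34 to 11.52 in Cd72+/-;Pax5+/-. Among them Dntt averaged 10.86, 10.63 and 8.52 in these groups. Monocyte and macrophage markers (9 measured) averaged 6.85 to 7.20, 6.97 to 7.05 and 6.71 to 6.74, with Ccr2 at 9.95, 10.29 and 6.38. In each of these 2 lists, 1 marker was called higher and 1 lower in the double mutant against WT. The median log2 change of pro-B markers in the double mutant was 0.25 against WT and -0.06 against Pax5+/-. That of monocyte and macrophage markers was 0.04 and 0.02, so Dntt and Ccr2 do not stand for their lists. Stromal and endothelial markers (14 measured) averaged 7.34 to 7.91, 7.13 to 7.97 and 6.80 to 7.02, and those of plasmacytoid dendritic cells (7 measured, Bst2 among them) 7.70 to 7.97, 7.63 to 7.79 and 7.83 to 7.89. The part of these marker levels in the members' changes was not tested. Fewer cells of a type and less RNA per cell cannot be told apart in such bulk samples.

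In Pax5+/- 3 members rose and 7 fell against WT, whereas the genotype that also lacks 1 copy of Cd72 carried higher signal for many antiviral effectors. Against WT, 15 members rose and 2 fell in Cd72+/-;Pax5+/-, and against Pax5+/- 22 rose and 3 fell. The falls in both of these comparisons included both chains of the type I interferon receptor, calls that were lost with the closest arrays of each group averaged. Members that fell made up 3.85% and 5.77% of the 52, near the 3.66% and 5.35% of all clusters. The largest rises were those of Rsad2, Oas2, Ifit1, Rnf213 and Rtp4 against WT, all over 2-fold on the cluster of highest mean signal of each gene. With the closest arrays averaged, the calls of Oas2 and Rtp4 were lost in both comparisons, while those of Rsad2, Ifit1 and Rnf213 stayed. The plot of all members by array shows these rises as a block of high signal in the last 4 columns.

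Members were called from limma where the p adjusted over 23410 clusters (Benjamini-Hochberg) was under 0.05. In Pax5+/- against WT 10 of 52 members were called (19.2%), beside 7.47% of all clusters. The 3 higher members (5.77%) lie near a background of 4.28%, and the 7 lower ones (13.5%) stand beside 3.2%. Groups did not overlap in 11 members, beside 10.7% of all clusters, and 1 member, Samhd1, passed the study's threshold of an unadjusted p under 0.05 with a change over 2-fold, beside 0.957%. In Cd72+/-;Pax5+/- against WT 17 were called (32.7%), beside 7.78% of all clusters: 15 higher (28.8%), beside 4.12%, and 2 lower (3.85%), beside 3.66%. In that comparison 23 members did not overlap (44.2%), beside 14.8%, and 5 passed the study's threshold, beside 0.914%. In Cd72+/-;Pax5+/- against Pax5+/- 25 were called (48.1%), beside 9.79%: 22 higher (42.3%), beside 4.44%, and 3 lower (5.77%), beside 5.35%. Here 31 members did not overlap, beside 18.5%, and 7 passed the study's threshold, beside 1.2%. The comparisons share arrays, so their counts are set side by side and are not independent. Counts at an unadjusted p under 0.05 alone, given below, have no share of all clusters beside them and are not read as results. Members were chosen with earlier results of these data known, so setting their shares beside those of all clusters is not an independent test.

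Some arrays of a group were more alike than others, most clearly in WT. The SD over clusters of the difference between arrays was 0.109 between WT replicates 1 and 3 and 0.117 between 2 and 4, against 0.27 to 0.28 for other WT pairs. In Pax5+/- it was 0.177 between replicates 1 and 3 and 0.122 between 2 and 4, against 0.195 to 0.281, and in the double mutant, where the pairs were hardly closer than others, 0.117 between 1 and 2 and 0.125 between 3 and 4, against 0.128 to 0.183. Nothing in the labels says whether a pair is 1 preparation. With each closest pair averaged to 1 value, 1, 3 and 8 members were called in the 3 comparisons: Samhd1 in Pax5+/- against WT, Rsad2, Rnf213 and Ifit1 in the double mutant against WT, and Rsad2, Ifih1, Ifit1, Ifit3, Mx2, Bst2, Rnf213 and Samhd1 in the double mutant against Pax5+/-. This left 1.2%, 1.24% and 1.79% of all clusters called. Rsad2 then had an adjusted p of 0.00213 against WT and 0.00183 against Pax5+/-. With the pairs kept as a random block in limma instead, 9, 11 and 18 members were called, beside 4.84%, 4.4% and 5.97% of all clusters. The calls lost were Bst2 in Pax5+/- against WT (adjusted p = 0.0684), Herc6, Ifnar2, Oas1a, Oas1b, Oasl2 and Xaf1 in the double mutant against WT (0.0509 to 0.184), and Dhx58, Eif2ak2, Ifi35, Ifit2, Ifitm3, Lgals3bp and Xaf1 in the double mutant against Pax5+/- (0.0502 to 0.0914).

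The members' median log2 change was -0.03 in Pax5+/- against WT, where the median of all clusters was -0.005. It was 0.22 in Cd72+/-;Pax5+/- against WT, with 41 of 52 members above 0, and 0.29 in Cd72+/-;Pax5+/- against Pax5+/-, with 44 of 52 above 0. The medians of all clusters in these comparisons were 0.002 and 0.005. Without regard to sign, the median member moved by 0.15, 0.30 and 0.33, and the median cluster by 0.07, 0.07 and 0.08.

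**Figure D1:**
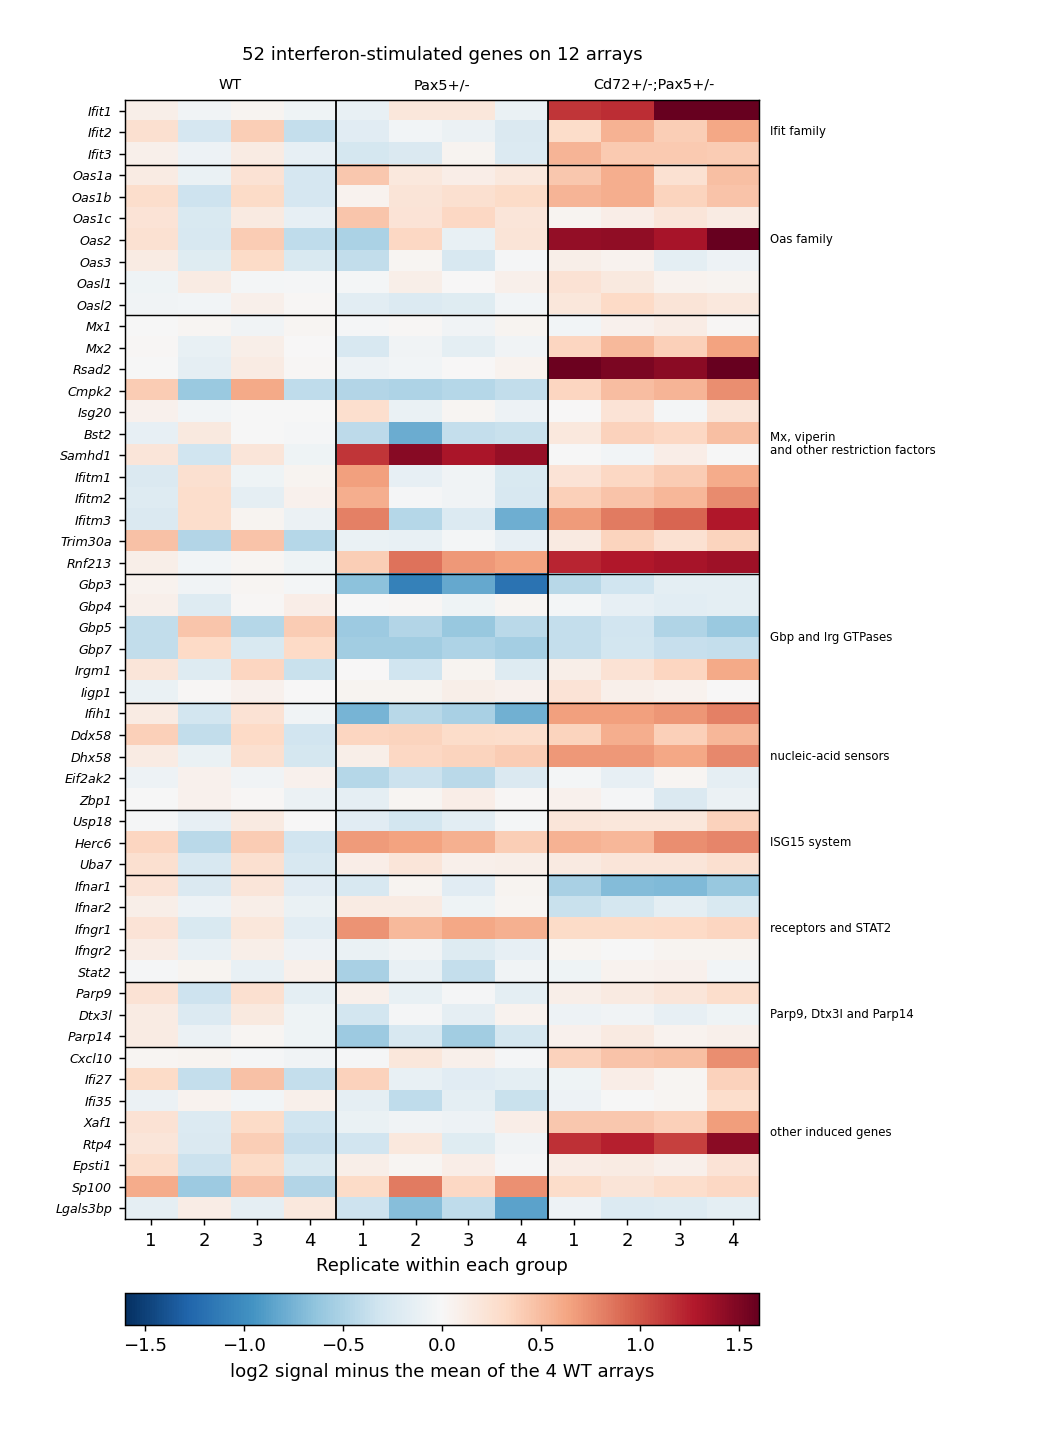
Log2 signal of the 52 members (rows, by family) on each of the 12 arrays (columns, replicates 1 to 4 of each genotype), as the difference from the mean of the 4 WT arrays. Values beyond the ends of the colour scale take its end colour. Rsad2, Ifit1, Oas2, Rtp4 and Rnf213 are dark red in all Cd72+/-;Pax5+/- columns, Samhd1 in all Pax5+/- columns, and WT columns 1 and 3 differ from 2 and 4 in many rows.

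The promoters of members that moved are shown to place the effectors beside the element they are known for. RefSeq start sites on GRCm38.p6 were matched for 45 of the 59 listed genes, and the window from 250 bases before to 50 after the start was searched for the ISRE core GAAANNGAAA on both strands (TTTCNNTTTC on the other). Of the 45 genes 24 held a match (53.3%), against 3.99% of 27025 genes with a promoter and 3.44% of 32851 promoters of the same length. The GAS core TTCNNNGAA, the same on both strands, was in 14 of 45 (31.1%), against 9.55% of genes and 8.3% of promoters. Among measured members with a promoter, 6 of 10 that rose in Cd72+/-;Pax5+/- against WT held an ISRE core, as did 13 of 27 not called (48.1%), and neither of the 2 that fell. Of members that fell in Pax5+/- against WT, 5 of 6 held it, as did 0 of 3 that rose and 14 of 30 not called (46.7%). The GAS core was in 3 of 6 that fell in Pax5+/-, 1 of 3 that rose and 8 of 30 not called. In the double mutant against WT it was in 2 of 2 that fell, 1 of 10 that rose and 9 of 27 not called. The 250 bases before the start are printed 5′ to 3′ on the gene's strand, with ISRE cores in capitals. Rsad2, Ifit1 and Ifit3 are members that rose in Cd72+/-;Pax5+/-, Bst2 and Gbp3 members that fell in Pax5+/-, and Rnf213 a member that rose in both genotypes and has no match in this window.
Rsad2 (chr12:26456453-26456702, - strand): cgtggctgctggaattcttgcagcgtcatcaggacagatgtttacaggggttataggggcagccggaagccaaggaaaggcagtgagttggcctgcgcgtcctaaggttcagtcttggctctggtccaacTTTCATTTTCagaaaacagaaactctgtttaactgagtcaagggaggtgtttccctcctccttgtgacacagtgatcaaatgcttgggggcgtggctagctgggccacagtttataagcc
Ifit1 (chr19:34640639-34640888, + strand): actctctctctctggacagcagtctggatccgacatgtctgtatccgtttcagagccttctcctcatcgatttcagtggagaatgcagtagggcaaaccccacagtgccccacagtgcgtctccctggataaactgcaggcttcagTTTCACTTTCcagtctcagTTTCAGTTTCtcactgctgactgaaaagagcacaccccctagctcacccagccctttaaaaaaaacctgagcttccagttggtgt
Ifit3 (chr19:34583279-34583528, + strand): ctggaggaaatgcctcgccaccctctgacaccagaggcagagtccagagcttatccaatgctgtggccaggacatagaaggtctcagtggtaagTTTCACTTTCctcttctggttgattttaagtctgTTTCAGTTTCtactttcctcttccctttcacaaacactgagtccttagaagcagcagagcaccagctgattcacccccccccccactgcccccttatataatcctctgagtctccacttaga
Bst2 (chr8:71537473-71537722, - strand): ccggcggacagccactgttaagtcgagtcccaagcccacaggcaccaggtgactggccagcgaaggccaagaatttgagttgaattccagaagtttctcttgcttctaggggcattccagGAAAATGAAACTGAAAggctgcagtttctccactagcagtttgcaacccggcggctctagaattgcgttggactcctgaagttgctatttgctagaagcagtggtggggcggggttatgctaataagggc
Gbp3 (chr3:142559794-142560043, + strand): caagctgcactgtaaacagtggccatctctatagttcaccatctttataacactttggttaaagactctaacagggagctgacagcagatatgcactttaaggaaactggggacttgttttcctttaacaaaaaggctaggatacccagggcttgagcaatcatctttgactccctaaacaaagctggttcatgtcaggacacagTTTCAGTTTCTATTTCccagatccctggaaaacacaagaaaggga
Rnf213 (chr11:119389849-119390098, + strand): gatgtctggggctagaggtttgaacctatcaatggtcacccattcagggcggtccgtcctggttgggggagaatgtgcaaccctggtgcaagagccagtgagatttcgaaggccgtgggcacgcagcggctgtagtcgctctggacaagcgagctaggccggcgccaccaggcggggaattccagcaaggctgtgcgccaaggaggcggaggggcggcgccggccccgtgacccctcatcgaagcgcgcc

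The match of Rsad2 began 120 bases before the start, those of Ifit1 104 and 85 bases, and those of Ifit3 156 and 122 bases before it. In Bst2 the matches at 130 and 124 bases and in Gbp3 those at 45 and 39 bases overlap and are printed as 1 capital run. A GAS core of Bst2 at 136 bases before the start overlaps the first of its ISRE cores. Gbp3 has 2 listed promoters, and the one printed is the one with matches. A match describes these letters and does not show a bound site, and the lack of one says nothing of the factor.

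Among the receptor chains, those of type I interferon were lower in the double mutant. Ifnar1 read 10.84, 10.39, 10.82 and 10.44 in WT, 10.36, 10.67, 10.44 and 10.66 in Pax5+/-, and 10.10, 9.93, 9.92 and 10.01 in the double mutant. All double-mutant arrays lay below the 8 others, while WT and Pax5+/- overlapped. Ifnar1 fell by 0.63 (SE 0.110, adjusted p = 0.00284) against WT and by 0.54 (adjusted p = 0.00663) against Pax5+/-. Ifnar2 read 9.91, 9.73, 9.91 and 9.71 in WT, 9.95, 9.95, 9.75 and 9.85 in Pax5+/-, and 9.46, 9.54, 9.66 and 9.57 in the double mutant. It too was lowest on every double-mutant array, and it fell by 0.26 against WT (adjusted p = 0.0363) and by 0.32 against Pax5+/- (adjusted p = 0.00924). With closest pairs averaged, limma gave adjusted p = 0.243 and 0.277 for Ifnar1 and 0.414 and 0.241 for Ifnar2 against WT and Pax5+/-, and with pairs as a random block only Ifnar2 against WT was lost (adjusted p = 0.144). Ifngr1, the ligand-binding chain for interferon-gamma, behaved otherwise. It read 9.93, 9.46, 9.89 and 9.54 in WT, 10.42, 10.22, 10.32 and 10.28 in Pax5+/-, and 10.01, 10.01, 10.02 and 10.05 in the double mutant. The 3 groups did not overlap, but only the rise of 0.61 in Pax5+/- against WT passed the test (adjusted p = 0.00128), and the double mutant differed from WT by 0.32 (adjusted p = 0.0648) and from Pax5+/- by -0.29 (adjusted p = 0.0824). Ifngr2 and Stat2, the STAT of the type I pathway, did not pass in any comparison. Stat2 differed by -0.27, 0.00 and 0.27 in single mutant against WT, double mutant against WT and double against single mutant.

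Of the 5 nucleic-acid sensors, only Ifih1 and Dhx58, both RNA helicases, were called higher in the double mutant against WT. Ifih1 encodes MDA5, which senses long double-stranded RNA. It read 7.46, 7.03, 7.56 and 7.27 in WT, 6.59, 6.89, 6.81 and 6.56 in Pax5+/-, and 7.98, 7.98, 8.04 and 8.14 in the double mutant. The 3 groups were apart, with Pax5+/- lowest and the double mutant highest, and every pair passed the test: -0.62 (adjusted p = 0.00291), 0.71 (adjusted p = 0.00111) and 1.32 (SE 0.108, adjusted p = 4.7e-06). Dhx58, which encodes LGP2, a helicase of the same family that regulates MDA5 and RIG-I, read 7.54, 7.30, 7.66 and 7.12 in WT, 7.50, 7.73, 7.76 and 7.81 in Pax5+/-, and 8.10, 8.10, 8.02 and 8.18 in the double mutant. It was highest in the double mutant on every array, with a mean difference of 0.70 over WT (adjusted p = 0.00101) and 0.40 over Pax5+/- (adjusted p = 0.0304). Ddx58, which encodes RIG-I itself, differed by 0.46 from WT and did not pass (adjusted p = 0.0921). Eif2ak2 encodes PKR, the kinase that halts translation on double-stranded RNA. It read 9.74, 9.88, 9.76 and 9.88 in WT, 9.36, 9.47, 9.39 and 9.59 in Pax5+/-, and 9.79, 9.68, 9.85 and 9.67 in the double mutant. Pax5+/- lay below both other groups, with a fall of 0.36 against WT (adjusted p = 0.003), and the double mutant was higher than Pax5+/- by 0.30 (adjusted p = 0.01). Zbp1, a sensor of Z-form nucleic acid, did not pass in any comparison and lay between 6.17 and 6.51 on all arrays.

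All 3 Ifit genes, which encode proteins that bind viral RNA, rose in the double mutant against Pax5+/-, and Ifit1 and Ifit3 also against WT. Ifit1 read 5.08, 4.94, 5.03 and 4.92 in WT, 4.87, 5.17, 5.17 and 4.89 in Pax5+/-, and 6.14, 6.17, 6.59 and 6.72 in the double mutant. WT and Pax5+/- overlapped, and all double-mutant arrays lay above both. The rise was 1.41 over WT (SE 0.126, adjusted p = 1.13e-05) and 1.38 over Pax5+/- (adjusted p = 1.15e-05). Ifit3 read 6.21, 6.05, 6.25 and 5.99 in WT, 5.84, 5.89, 6.17 and 5.91 in Pax5+/-, and 6.67, 6.54, 6.55 and 6.53 in the double mutant. Again only the last group stood apart, with a mean difference of 0.45 over WT (adjusted p = 0.00327) and 0.62 over Pax5+/- (adjusted p = 0.000196). Ifit2 read 7.18, 6.66, 7.32 and 6.55 in WT, 6.74, 6.88, 6.84 and 6.70 in Pax5+/-, and 7.22, 7.48, 7.32 and 7.55 in the double mutant. In Ifit2, WT replicate 3 lay within the double-mutant range, and WT replicate 1 lay just below it. The rise of 0.60 over Pax5+/- passed (adjusted p = 0.0222) while the 0.47 over WT did not (adjusted p = 0.0862). In Pax5+/- against WT none of the 3 was called by limma, and 1 was lower at an unadjusted p under 0.05.

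The Oas family encodes synthetases of oligoadenylates, which activate RNase L, and their inactive relatives. Of 7 measured members, Oas2, Oasl2, Oas1a and Oas1b rose in the double mutant against WT, Oas2 and Oasl2 rose against Pax5+/-, and none was called by limma in Pax5+/- against WT, where 2 had an unadjusted p under 0.05. Oas2 read 7.45, 6.95, 7.61 and 6.80 in WT, 6.70, 7.53, 7.09 and 7.41 in Pax5+/-, and 8.61, 8.62, 8.52 and 8.82 in the double mutant. Its spread within WT and Pax5+/- was wide, yet all double-mutant arrays lay above both. The mean difference was 1.44 over WT (SE 0.196, adjusted p = 0.000443) and 1.46 over Pax5+/- (adjusted p = 0.000302). Both calls were lost in limma with closest pairs averaged (adjusted p = 0.116 and 0.0928). The other rises over WT were smaller, 0.22 for Oasl2, 0.44 for Oas1a and 0.49 for Oas1b, and Oasl2 rose by 0.38 over Pax5+/- (adjusted p = 0.000523). Oas3 and Oas1c, from the same family, differed from WT by -0.02 and 0.12 in the double mutant and did not pass. Oasl1 read 7.58, 7.78, 7.62 and 7.63 in WT, 7.62, 7.75, 7.66 and 7.73 in Pax5+/-, and 7.88, 7.81, 7.71 and 7.69 in the double mutant. Its 3 groups overlapped, and Oasl1 did not pass in any comparison. The Oas1 genes are close copies of each other, so probes could share signal between them and their values are uncertain.

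**Figure D2:**
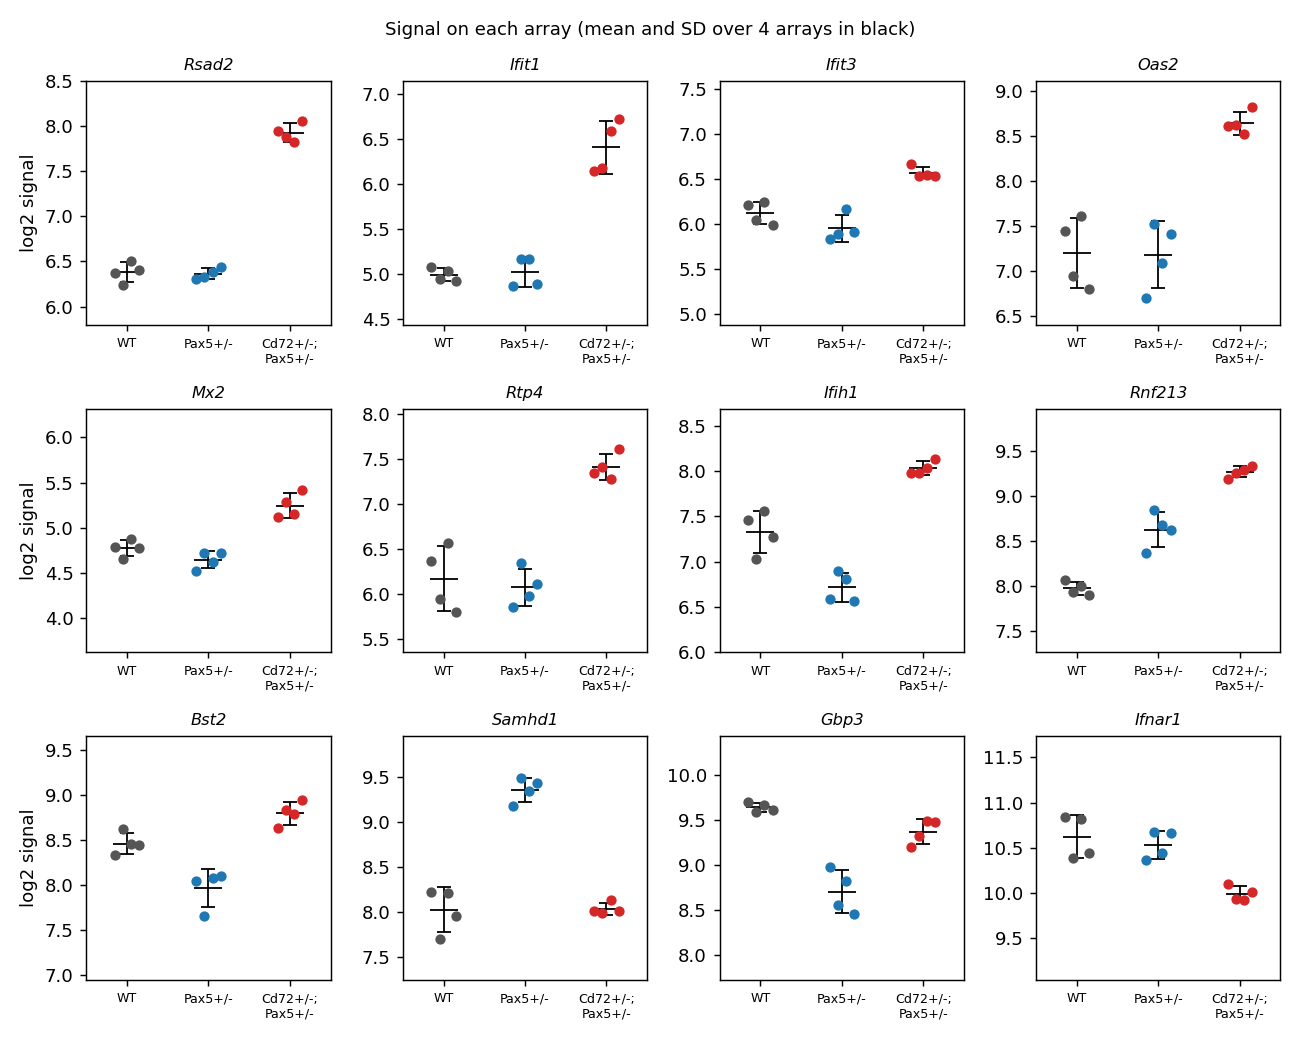
Log2 signal (vertical axis, each panel spanning the same number of log2 units) of 12 members on every array, with the mean and SD over 4 arrays in black. The red Cd72+/-;Pax5+/- points lie above both other groups for Rsad2, Ifit1, Ifit3, Oas2, Mx2, Rtp4, Ifih1, Rnf213 and Bst2 and below both for Ifnar1, while the blue Pax5+/- points lie apart from the others for Samhd1 and Gbp3.

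Among the 12 Mx, viperin and other restriction factors, Rsad2, Rnf213 and Mx2 rose in the double mutant against WT and 6 rose against Pax5+/-. Rsad2 encodes viperin, an enzyme that makes a chain-terminating nucleotide. It read 6.37, 6.24, 6.51 and 6.40 in WT, 6.30, 6.33, 6.38 and 6.44 in Pax5+/-, and 7.95, 7.88, 7.82 and 8.06 in the double mutant. The gap between the last group and all other arrays was wider than the whole range within any group. The mean difference was 1.55 over WT (2.92-fold, SE 0.067, adjusted p = 1.4e-08) and 1.57 over Pax5+/- (adjusted p = 1.18e-08). Cmpk2, which lies beside Rsad2 in the genome and makes nucleotide precursors, read 7.28, 6.28, 7.49 and 6.47 in WT, 6.41, 6.39, 6.42 and 6.48 in Pax5+/-, and 7.22, 7.37, 7.42 and 7.62 in the double mutant. Its Pax5+/- arrays were low with little spread and WT was divided. Cmpk2 rose by 0.98 over Pax5+/- (adjusted p = 0.012) and differed by 0.53 from WT (adjusted p = 0.196).

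Rnf213 encodes a large ubiquitin ligase that coats intracellular pathogens. It read 8.06, 7.93, 8.00 and 7.90 in WT, 8.37, 8.84, 8.67 and 8.62 in Pax5+/-, and 9.19, 9.25, 9.29 and 9.33 in the double mutant. The 3 groups ascended without overlap and every pair passed: 0.65 for Pax5+/- over WT (adjusted p = 0.000231), 1.29 for the double mutant over WT (adjusted p = 6.3e-07) and 0.64 for the double mutant over Pax5+/- (adjusted p = 0.000219). The gene's other cluster, of lower mean signal, gave 0.51, 1.67 and 1.16 in these comparisons (adjusted p = 0.000251, 6.3e-09 and 1.46e-07), the last 2 larger than the values of the cluster used. Mx2, a dynamin-like GTPase that traps viral particles, read 4.79, 4.65, 4.87 and 4.78 in WT, 4.52, 4.72, 4.62 and 4.72 in Pax5+/-, and 5.12, 5.29, 5.15 and 5.42 in the double mutant. Only the last group stood apart, with a mean difference of 0.47 over WT (adjusted p = 0.00143) and 0.60 over Pax5+/- (adjusted p = 0.000164). Its relative Mx1 lay between 5.21 and 5.39 on all arrays and did not pass in any comparison.

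Bst2 encodes tetherin, which holds budding virus at the cell surface. It read 8.33, 8.62, 8.45 and 8.44 in WT, 8.04, 7.66, 8.08 and 8.10 in Pax5+/-, and 8.63, 8.83, 8.79 and 8.94 in the double mutant. The order was Pax5+/- below WT below the double mutant with no overlap. Bst2 fell by 0.49 in Pax5+/- against WT (adjusted p = 0.00856) and rose by 0.83 in the double mutant against Pax5+/- (adjusted p = 0.000136), and the 0.34 between the double mutant and WT did not pass (adjusted p = 0.0644). Bst2 is also a marker of plasmacytoid dendritic cells, and the 6 others of that list did not move as one. In WT, Pax5+/- and the double mutant, Spib averaged 8.98, 7.71 and 8.60, lowest in Pax5+/- as Bst2 was, but highest in WT. Cox6a2 averaged 7.51, 8.05 and 8.06, Ccr9 5.97, 6.48 and 5.82, Tcf4 10.57, 10.43 and 10.56, Pacsin1 7.20, 7.18 and 7.04, and Siglech 6.08, 6.17 and 6.11. Their part in the values of Bst2 was not tested.

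Samhd1, which destroys the nucleotides needed for reverse transcription, was high in Pax5+/- alone. It read 8.23, 7.71, 8.22 and 7.96 in WT, 9.18, 9.49, 9.34 and 9.43 in Pax5+/-, and 8.02, 7.99, 8.14 and 8.02 in the double mutant. Pax5+/- arrays lay above all others, and WT and the double mutant overlapped. Samhd1 rose by 1.33 in Pax5+/- against WT (2.51-fold, SE 0.107, adjusted p = 4.14e-06) and fell by 1.32 in the double mutant against Pax5+/- (adjusted p = 4.33e-06), and the double mutant differed from WT by 0.01.

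The Ifitm genes encode membrane proteins that block fusion of virus with the cell. Ifitm3 rose by 1.09 in the double mutant against Pax5+/- (adjusted p = 0.0218), although Pax5+/- replicate 1, at 9.69, lay within the double-mutant range of 9.56 to 10.17. Its difference of 0.93 from WT did not pass (adjusted p = 0.0561). Ifitm1 read 11.02, 11.51, 11.18 and 11.29 in WT, 11.91, 11.12, 11.20 and 11.00 in Pax5+/-, and 11.47, 11.58, 11.66 and 11.85 in the double mutant. As with Ifitm3, Pax5+/- replicate 1 was the highest of its group, and neither Ifitm1 nor the Ifitm2 cluster with the highest mean signal passed in any comparison. Of the other 2 Ifitm2 clusters, 1 rose by 0.61 in the double mutant against WT (adjusted p = 0.0494), where the cluster used differed by 0.53 (adjusted p = 0.0701). Isg20 and Trim30a also did not pass in any comparison.

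The guanylate-binding proteins, GTPases that attack pathogen-containing vacuoles and are induced strongly by interferon-gamma, had no member called higher than WT in either mutant genotype, nor any higher at an unadjusted p under 0.05 in limma. Gbp3 read 9.70, 9.59, 9.67 and 9.61 in WT, 8.98, 8.56, 8.82 and 8.46 in Pax5+/-, and 9.20, 9.32, 9.49 and 9.48 in the double mutant. WT was highest, Pax5+/- lowest and the double mutant between them, with no overlap. Gbp3 fell by 0.94 in Pax5+/- against WT (SE 0.104, adjusted p = 7.41e-05) and rose by 0.67 in the double mutant against Pax5+/- (adjusted p = 0.000973), and the -0.27 from WT in the double mutant did not pass (adjusted p = 0.159). Gbp7 read 11.09, 11.81, 11.25 and 11.80 in WT, 10.93, 10.93, 11.00 and 10.94 in Pax5+/-, and 11.11, 11.19, 11.12 and 11.11 in the double mutant. WT replicates 2 and 4 were higher than every other array, and Gbp7 fell by 0.54 in Pax5+/- against WT (adjusted p = 0.0293), a call lost without WT replicate 2 or 4 or without any Pax5+/- array (adjusted p up to 0.0823). Gbp4, Gbp5, Irgm1 and Iigp1 did not pass in any comparison, and the median of all 6 GTPases was -0.32, -0.20 and 0.13 in single mutant against WT, double mutant against WT and double against single mutant. Gbp genes are near copies of each other, and their values are uncertain where probes are shared.

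In the ISG15 system, a ubiquitin-like modifier with its enzymes, Usp18, the protease that removes ISG15 and damps receptor signalling, rose by 0.40 in the double mutant against Pax5+/- (adjusted p = 0.003). Herc6, the ligase that attaches ISG15 in mice, rose by 0.66 in the double mutant against WT (adjusted p = 0.0311). Herc6 averaged 8.37 in Pax5+/- and 8.45 in the double mutant, a difference of 0.08 (adjusted p = 0.842). The 0.57 between Pax5+/- and WT did not pass (adjusted p = 0.0606). Its WT arrays were divided, with 8.13 and 8.20 in replicates 1 and 3 and 7.36 and 7.48 in replicates 2 and 4. Uba7, the activating enzyme, read 8.58, 8.06, 8.58 and 8.06 in WT, 8.43, 8.52, 8.40 and 8.41 in Pax5+/-, and 8.46, 8.52, 8.51 and 8.57 in the double mutant. It was divided in the same way and did not pass in any comparison.

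Parp9 and Dtx3l form a complex that modifies histones, and Parp14 is a related mono-ADP-ribosyltransferase. Parp14 read 9.49, 9.26, 9.38 and 9.29 in WT, 8.77, 9.10, 8.80 and 9.07 in Pax5+/-, and 9.42, 9.50, 9.41 and 9.44 in the double mutant. All Pax5+/- arrays lay below both other groups, which overlapped. Parp14 fell by 0.42 in Pax5+/- against WT (adjusted p = 0.00505) and rose by 0.51 in the double mutant against Pax5+/- (adjusted p = 0.00106). Dtx3l read 10.31, 9.96, 10.34 and 10.11 in WT, 9.88, 10.16, 10.04 and 10.24 in Pax5+/-, and 10.10, 10.12, 10.05 and 10.11 in the double mutant, and its groups overlapped. Neither Dtx3l nor Parp9 passed in any comparison.

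Of the other 8 induced genes, Rtp4, Cxcl10 and Xaf1 rose in the double mutant against both other groups. Rtp4, a transporter-like protein that restricts flaviviruses, read 6.37, 5.94, 6.57 and 5.80 in WT, 5.86, 6.34, 5.98 and 6.11 in Pax5+/-, and 7.34, 7.41, 7.27 and 7.61 in the double mutant. Its last group lay above all other arrays. The mean difference was 1.24 over WT (SE 0.157, adjusted p = 0.000256) and 1.33 over Pax5+/- (adjusted p = 0.000102). Both calls of Rtp4 were lost in limma with closest pairs averaged (adjusted p = 0.0914 and 0.0612). Cxcl10, a chemokine that attracts activated T cells, read 5.67, 5.69, 5.63 and 5.59 in WT, 5.62, 5.83, 5.72 and 5.62 in Pax5+/-, and 6.01, 6.10, 6.13 and 6.39 in the double mutant. The rise without overlap was 0.51 over WT (adjusted p = 0.000907) and 0.46 over Pax5+/- (adjusted p = 0.00166). Xaf1, a pro-apoptotic protein, rose by 0.48 and 0.51.

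Lgals3bp, a secreted glycoprotein that binds galectins, read 9.48, 9.74, 9.48 and 9.79 in WT, 9.29, 8.94, 9.21 and 8.76 in Pax5+/-, and 9.54, 9.40, 9.42 and 9.47 in the double mutant. It was lowest in Pax5+/- on every array, with a fall of 0.57 against WT (adjusted p = 0.00565) and a rise of 0.41 in the double mutant against Pax5+/- (adjusted p = 0.0355). Ifi35, an adaptor-like protein, rose by 0.32 in the double mutant against Pax5+/- (adjusted p = 0.0297). Ifi27, Epsti1 and Sp100 did not pass in any comparison.

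**Figure D3:**
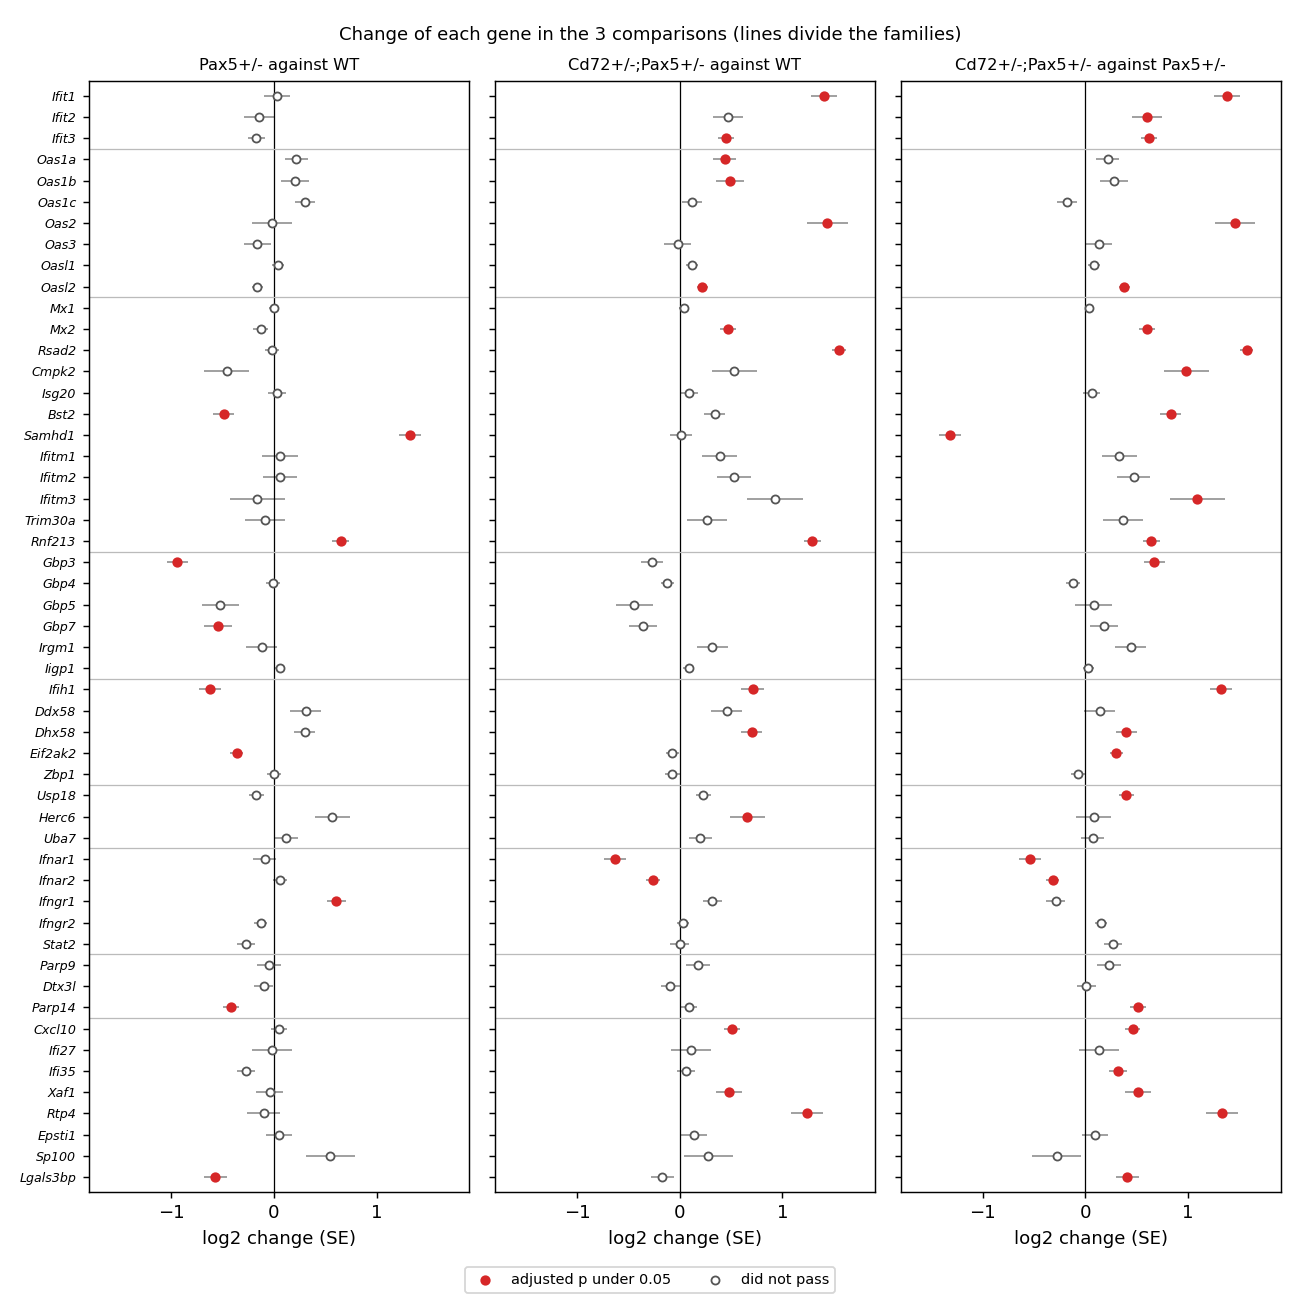
Log2 change (horizontal axis) of each member with its standard error from limma, in single mutant against WT, double mutant against WT and double against single mutant. Filled red points passed the test and number 10, 17 and 25, and the filled points right of 0 number 3, 15 and 22.

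WT arrays were not alike in these genes. Replicates 1 and 3 were both above replicates 2 and 4 in 32 of 52 members (61.5%), beside 31.6% of all clusters, and both below in 10 (19.2%), beside 24.4%. The difference between the means of the pairs was over 0.5 in 14 members with replicates 1 and 3 higher and in 2 (Gbp5 and Gbp7) with them lower, and its median size was 0.33 in members and 0.1 in all clusters. It was widest for Sp100 (1.05), a nuclear-body protein, then Cmpk2 (1.01), Trim30a (0.93), Gbp5 (-0.85), Ifi27 (0.77) and Herc6 (0.74), and it was 0.12 for both Ifit1 and Rsad2. The same arrays differed in pro-B markers, which averaged 11.87 and 11.89 in replicates 1 and 3 and 10.98 and 10.95 in replicates 2 and 4, and in stromal markers, which averaged 7.90, 7.91, 7.34 and 7.37 in that order. Stromal markers were divided in Pax5+/- too, at 7.90 and 7.97 in replicates 1 and 3 and 7.13 and 7.17 in 2 and 4, while pro-B markers there lay within 11.63 to 11.75. Their part in the members' values was not tested either.

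With any single array left out, 9 of 10, 11 of 17 and 19 of 25 called members stayed called throughout. In the double mutant against WT, the calls of Herc6, Oas1a, Oas1b, Oasl2 and Xaf1 were each lost without WT replicate 2 or 4, and those and Ifnar2 were each lost without double-mutant replicate 2. Their adjusted p then reached 0.0886 for Herc6, 0.105 for Oas1a, 0.135 for Oas1b, 0.0888 for Oasl2, 0.121 for Xaf1 and 0.108 for Ifnar2, over all arrays left out in turn. The count of 17 fell to 11 without double-mutant replicate 2. In the double mutant against Pax5+/- the calls of Dhx58, Ifi35, Ifit2, Ifitm3, Lgals3bp and Xaf1 were lost without at least 1 array of the compared groups, double-mutant replicate 4 for all 6, with adjusted p up to 0.0855, 0.0844, 0.0694, 0.0699, 0.0994 and 0.0758.

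The rest of the pathway was read from 4 further lists. Of 16 interferon genes measured, none was called in either comparison with WT, and Ifnz (limitin) rose by 0.78 in the double mutant against Pax5+/- (adjusted p = 0.00146). In limma at an unadjusted p under 0.05, 1 ligand passed in each comparison with WT, Ifnz in both, lower in Pax5+/- and higher in the double mutant. Of 13 receptor chains, kinases and brakes, 2 rose in Pax5+/- against WT, Ptpn6 (0.31), a phosphatase that damps receptor signalling, and Il10rb (0.46), a chain shared by the receptors of interferon-lambda and interleukin-10. Il10rb fell in the double mutant by 0.43 against WT and by 0.90 against Pax5+/-, while Ifnlr1, its partner for interferon-lambda, rose by 0.57 and 0.43, and Ptpn6 fell by 0.34 against Pax5+/-. Of 12 relays of nucleic-acid sensing, Mavs and Dhx9 fell in Pax5+/- against WT by 0.19 and 0.27. Adar, the interferon-inducible RNA editor, rose by 0.35 in the double mutant against WT and by 0.38 against Pax5+/-. Trim25, the ligase that acts on RIG-I, rose by 0.71 in the double mutant against Pax5+/-, and Mavs fell by 0.25 against WT. Of all clusters, 4.28% were called higher and 3.2% lower in Pax5+/- against WT. The shares were 4.12% and 3.66% in the double mutant against WT, and 4.44% and 5.35% against Pax5+/-. Lists of 16, 13 and 12 genes are too short to set their calls apart from these shares.

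Of 56 other interferon-stimulated genes, 5 rose and 3 fell in Pax5+/- against WT, beside 4.28% higher and 3.2% lower of all clusters. In the double mutant against WT 8 rose and none fell (6 were lower at an unadjusted p under 0.05 in limma), beside 4.12% and 3.66%. In the double mutant against Pax5+/- 10 rose and 4 fell, beside 4.44% and 5.35%, and the counts of 3 and 4 lower genes lie near those shares. The list's median log2 changes were -0.00, 0.06 and 0.06. Parp12, an ADP-ribosyltransferase that blocks translation of viral RNA, rose by 0.68, 2.09 and 1.41 in these comparisons (adjusted p = 0.000836, 5.42e-08 and 1.48e-06), a larger rise over WT than that of any of the 52 members. Ccl5, a chemokine, rose by 0.69 and 0.75 in the double mutant against WT and Pax5+/-. Slfn5, of the Schlafen family of growth and RNA regulators, rose by 0.88 against WT. Ly6e, a surface protein that restricts coronavirus entry, and Slfn2 fell in Pax5+/- against WT by 0.93 and 1.08, and Ly6e rose by 0.77 in the double mutant against Pax5+/-.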

How the data were processed

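RNA of 12 pro-B cell samples was measured on arrays and, per the labels, analysed by the authors with the Transcriptome Analysis Console. The deposited table holds log2 signal per transcript cluster, from 3.67 to 14.73. How background was corrected, arrays normalized and probes summarized, and on which genome build, is not given in the sources used here. No further normalization was applied. Groups were taken from the labels' source names, and replicates were numbered in the order deposited, so the numbers pair no samples. Gene symbols came from the platform annotation: 23410 of 28944 clusters carry a symbol, 1621 of them several, and no member was named from those.

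All 23410 clusters entered 1 linear model with 3 group means (limma 3.58.1, R 4.3.3, lmFit and eBayes, no filter on signal), with Benjamini-Hochberg adjustment over all of them and calls at an adjusted p under 0.05. Exact two-sided permutation tests of 4 arrays against 4 cannot go below 0.0286. The fit was tested on simulated data. Promoters were searched with Python 3.11.15, and figures drawn with pandas 2.3.3 and matplotlib 3.10.9.

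Members given on every array are, in each comparison, up to 8 called higher and 8 called lower by smallest adjusted p, and in each family the member with the highest mean. Up to 3 called genes of each other list and comparison are named. Cmpk2, Ifitm3, Herc6, the dendritic-cell markers beside Bst2 and the members named with a change only were added after their values were seen. Members and lists were chosen with earlier results of these data known. Alternatives were quantile normalization, a common median, a signal filter, all clusters, a trended robust prior, only the groups compared, a gene's clusters averaged, closest pairs averaged or as a random block, each array left out, WT and Pax5+/- replicates 1 and 3 or 2 and 4 left out, and the study's threshold.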

Additional observations from a re-analysis of the deposited data

Results flagged for a closer look

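In 6 of 156 groups of 4 arrays tested, 1 array lay far from the other 3 of its group. Chance flags about 1 in 20 groups. The high arrays were 6.67 for Ifit3 in Cd72+/-;Pax5+/- (others 6.53 to 6.55), 11.00 for Gbp7 in Pax5+/- (others 10.93 to 10.94), 11.19 for Gbp7 in Cd72+/-;Pax5+/- (others 11.11 to 11.12), 6.37 for Usp18 in Cd72+/-;Pax5+/- (others 6.18 to 6.19) and 9.25 for Ifi27 in Pax5+/- (others 8.71 to 8.77). The low array was 7.66 for Bst2 in Pax5+/- (others 8.04 to 8.10).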

How the results depend on the processing

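The counts of called members were 10 in Pax5+/- against WT, 17 in Cd72+/-;Pax5+/- against WT and 25 in Cd72+/-;Pax5+/- against Pax5+/-. They stayed within 1.5 times these values under quantile normalization, a common median, all clusters, a trended robust prior, only the groups compared and a gene's clusters averaged, and no called member changed sign under any alternative run. With closest pairs averaged they were 1, 3 and 8, beside 1.2%, 1.24% and 1.79% of all clusters, with fewer values entering the fit. With those pairs as a random block they were 9, 11 and 18, beside 4.84%, 4.4% and 5.97%. At the study's threshold, which adds a limit on fold, they were 1, 5 and 7. Among clusters above the median signal, which keep 35 members, they were 11, 10 and 15, beside 11.8%, 12.4% and 15.8% of the clusters kept. Without WT and Pax5+/- replicates 1 and 3 they were 26, 34 and 35, beside 22.9%, 18.9% and 20.3% of all clusters, and without replicates 2 and 4 of both groups 18, 21 and 30, beside 7.42%, 20.4% and 19.3%; each such fit keeps a closest pair of WT and of Pax5+/-. Without replicates 1 and 3, Ifnar1 in Pax5+/- against WT changed from -0.09 to 0.25 (adjusted p = 0.0289), and the cause was not tested. With single arrays left out the counts ranged from 9 to 13, from 11 to 21 and from 19 to 26. The signal scale has no stated background, so low values such as those of Mx2 and Iigp1 cannot be set against a detection limit.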
